A study of Sus scrofa with 4 samples.

Results

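The genes that hold an epithelium together and let the blastocyst form its fluid cavity were followed in pig embryos that had developed with or without ethanol. Members were picked out by gene symbol, from names listed with earlier results of these data known, as array probes whose platform symbol is that of a claudin, a zonula occludens scaffold, a connexin, a desmosomal protein, a catenin, an aquaporin, a sodium pump subunit, or 1 of 11 further junction and polarity genes. The rule found 71 probes for 57 genes, of 43794 probes and 11060 named genes on the array. Gene expression was measured on 4 two-colour arrays. On each array, a pool of 10 expanded blastocysts exposed to 0.2% ethanol in the medium PZM3 for 7 days from the zygote stage was set beside a pool of 10 expanded blastocysts to which no compound was added. RNA was amplified with T7 RNA polymerase, and ethanol RNA carried the dye Cy5 on arrays 1 and 3 but Cy3 on arrays 2 and 4, with control RNA in the other dye. The labels place the embryos in tightly sealed glass vials, and each value averages over the embryos of a pool. In such bulk samples fewer cells of a type and less RNA per cell cannot be told apart.

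The outer cells of a blastocyst, the trophectoderm, form an epithelium. Tight junctions (claudins, occludin, F11R and their scaffolds) seal the gaps between its cells, desmosomes and adherens junctions anchor the cells to each other, and gap junctions built of connexins let small molecules pass between them. An atypical protein kinase C with the partners encoded by PARD3 and PARD6B sets the apical side apart from the basal side, the sodium pump moves ions inward, and aquaporins carry the water that follows and fills the cavity.

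A gene was called measured when a probe exceeded background, set at percentile 95 of the negative-control spots, in 1 kind of RNA (ethanol or control) on 3 or more arrays. This held for 35 of the 57 genes (61.4%, against 66.4% of all named genes) and for 44 of the 71 probes. All 4 desmosomal genes and all 5 polarity genes of the array were measured, against 12 of 20 tight junction genes, 3 of 8 connexins, 5 of 8 catenin-family genes and 6 of 12 pump and water channel genes. Of the claudins, 7 of 15 were measured, and of the aquaporins 5 of 9. Among the 22 genes not measured, 8 had a probe above background on no array in either channel, and these were CLDN2, CLDN14, CLDN18, GJA10, CTNNA2, AQP10, ATP1B2 and ATP1B4. GJA1, a connexin of many epithelia, exceeded background with ethanol RNA on 1 array and with control RNA on none. CDH1 (E-cadherin), the alpha subunits of the sodium pump and the desmogleins have no probe under those names and were not analysed here. Of the 35 measured genes, 24 were above background in both channels of all 4 arrays.

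In the Cy3 channel 70.4% to 73.5% of probes exceeded the negative controls, and in the Cy5 channel 45.3% to 57.3%. The samples are whole blastocysts. Of the trophectoderm markers 11 of 11 with a probe were measured, CDX2, GATA3, KRT8 and KRT18 among them. Of the inner cell mass markers, 3 of 6 with a probe were measured, POU5F1 among them, and of the hypoblast markers 6 of 6. Cumulus and granulosa markers, which would come from cells left on the embryo, were also measured, for 9 of 9 genes, so being above background does not tell the cell types apart.

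The comparison of ethanol with control pools asks how the transcripts of blastocysts that developed under ethanol differ. GJB5 and CLDN4 had the lowest fitted values among the members, and PRKCI and DSP the highest. No member passed the adjusted threshold of 0.05 in limma's moderated test, which called 0 of 25899 probes (0%), with 1884 (7.27%) at an unadjusted p under 0.05, so every difference is given as a value. No probe passed the adjusted threshold either in a separate-channel analysis, without the dye term or with the authors' deposited ratios, where 2611, 879 and 1872 probes had an unadjusted p under 0.05. At an unadjusted p under 0.05 there were 6 of 35 members (17.1%), 4 higher and 2 lower with ethanol, beside 663 of 7344 named genes (9.03%), 355 higher (4.83%) and 308 lower (4.19%). The 6 were PRKCI, DSP, ATP1B1 and PARD3 on the higher side and GJB5 and CLDN4 on the lower. ATP1B1 passed the filter through ethanol RNA alone, the side on which it was higher, so its place in this count and in the next ones follows in part from the filter. The count was 3 of 24 members (12.5%, against 9.70% of named genes) when a probe had to be above background in both channels of all arrays. It was 3 of 35 (8.57%) without array 2 and also without array 3, against 6.45% and 9.11% of named genes, so without array 3 the members' share lay below that of all named genes.

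Ratios are log2 ethanol over control, and a fitted value is the ratio from limma's model with a dye term per probe. The members were spread evenly around 0, with 18 above and 17 below, a median of 0.01 and a span from -0.62 to 0.35, and 49.6% of all named genes lay above 0. The ratio kept 1 sign on all 4 arrays in 7 of 35 members, beside 10.3% of named genes. It did so with an unadjusted p under 0.05 in 4, GJB5, DSP, ATP1B1 and PRKCI, beside 5.11% of named genes. The ratio on a single array still holds the dye bias of the probe, so both counts depend on dye as well as treatment. For 32 of the 35 members the 95% interval of the fitted value lay within 1.5-fold in either direction, as for 94.6% of named genes. The exceptions were CLDN4, GJB5 and TJP3, so for these 3 genes a difference of that size lay within the interval. Only CLDN4 had a fitted value past 1.5-fold, which 0.368% of named genes had. Both counts hold for a background correction with an offset of 50. With no offset, PRKCI (0.55, SE 0.15), DSP (0.47, SE 0.16) and ATP1B1 (0.51, SE 0.11) had a 1.5-fold difference (0.585 in log2) within 1 SE. GJB5 also passed 1.5-fold there, at -0.65.

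**Figure D1:**
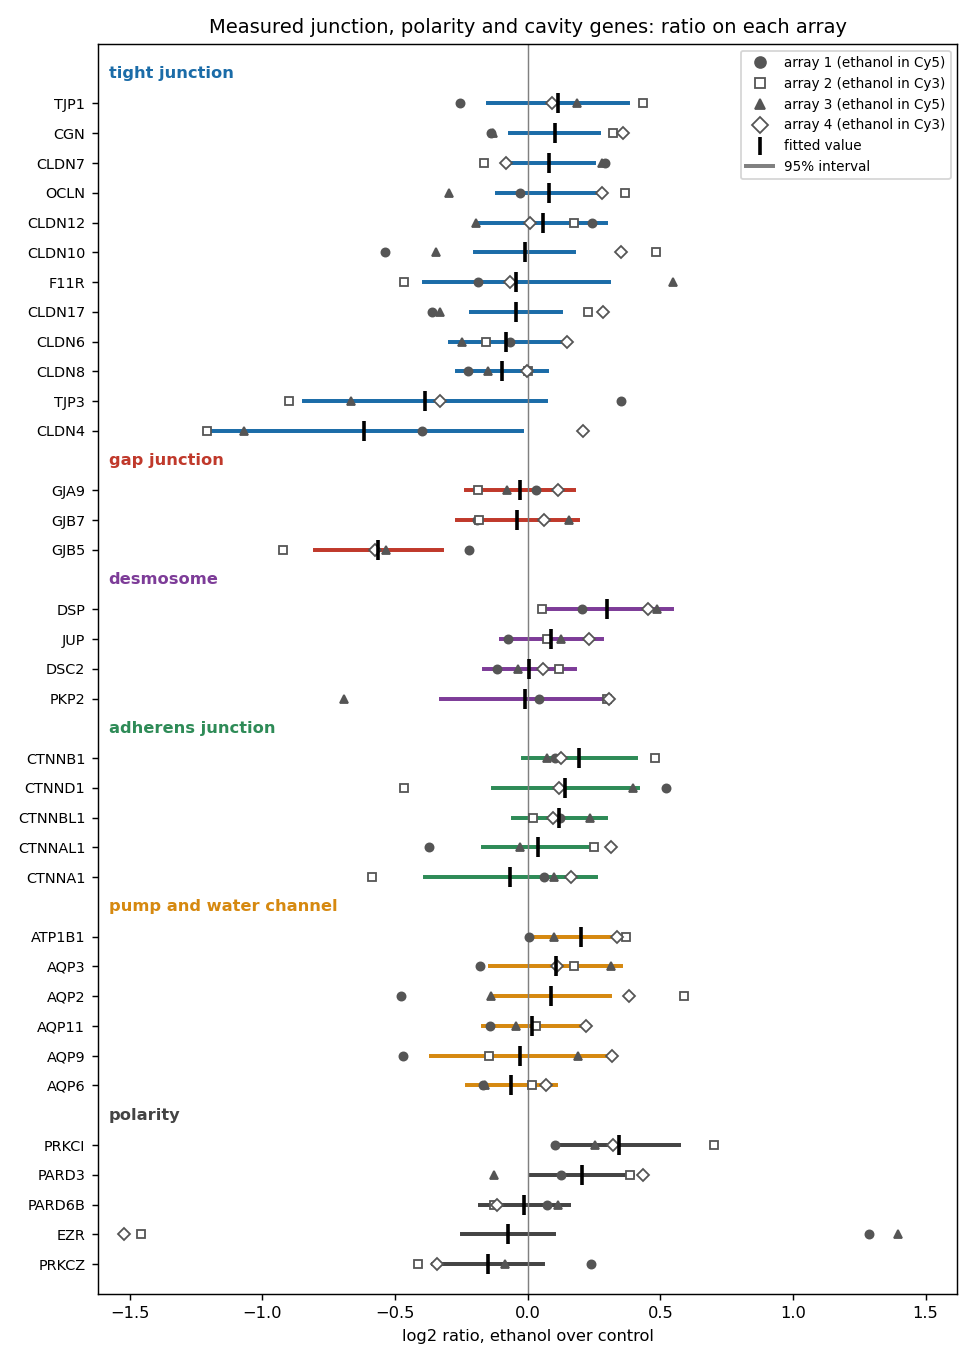
Log2 ratio of ethanol over control (x axis) for each of the 35 measured members, grouped by role (rows). Points are single arrays, filled where the ethanol pool was labelled with Cy5 and open where it was labelled with Cy3, the black tick is the fitted value and the bar its 95% interval. GJB5 at -0.56 and PRKCI at 0.35 had all 4 points on 1 side of 0, while the points of EZR split by dye, near 1.3 to 1.4 with Cy5 and near -1.5 with Cy3.

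Among tight junction genes, CLDN4 had the lowest value. CLDN4 encodes a claudin of the sealing strands. Its level, as normalised log2 intensity, was 8.51, 7.90, 8.70 and 9.39 in the ethanol pools of arrays 1 to 4, against 8.90, 9.11, 9.76 and 9.18 in the control pools of the same arrays. The ethanol pool was the lower one on arrays 1, 2 and 3 and the higher one on array 4, and the levels of the pools overlapped. The fitted ratio was -0.62 (SE 0.24, n = 4), 1.53-fold lower with a 95% interval from 1.02-fold to 2.32-fold lower, and an adjusted p of 0.675 in limma. A second CLDN4 probe had a fitted ratio of -0.24 (SE 0.07), with an unadjusted p of 0.0130 and an adjusted p of 0.551 in limma. Its ratios did not follow those of the first from array to array. They were 0.01 and 0.03 on arrays 1 and 3, with ethanol in Cy5, and -0.55 and -0.47 on arrays 2 and 4, with ethanol in Cy3. The first probe had ratios of -0.40, -1.21, -1.07 and 0.21 on arrays 1 to 4. The probes thus had opposite signs on arrays 1, 3 and 4, with the second probe near 0 on arrays 1 and 3. The second probe had a dye coefficient, the part of a ratio that stays with Cy5 whatever the treatment, of 0.27. Its split between arrays followed the dye. The CLDN4 value was -0.26 without array 2 and -0.97 without array 4.

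TJP3, a zonula occludens scaffold under the membrane, came next with a fitted ratio of -0.39 (SE 0.18, adjusted p = 0.735 in limma). Its ratio was 0.35 on array 1 and -0.90, -0.67 and -0.33 on arrays 2, 3 and 4. Leaving out array 3 gave -0.13, leaving out array 2 gave -0.25 and leaving out array 1 gave -0.64. The related scaffold gene TJP1 had the highest value of the tight junction genes, 0.11 (SE 0.11), with ratios of -0.25, 0.43, 0.19 and 0.09 on arrays 1 to 4. A difference between TJP3 and TJP1 was not tested.

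The other tight junction genes lay between -0.10 and 0.10. CGN encodes cingulin, which ties the junction to actin and myosin, and had 0.10 (SE 0.07), while its second probe lay at -0.01. OCLN (occludin) had 0.08, with its second probe at -0.02. F11R, an adhesion molecule of the immunoglobulin family, had -0.04 with array 3 at 0.55 and array 2 at -0.47, so its arrays differed by more than the fitted value. Of the 7 measured claudins 5 lay below 0. Apart from CLDN4 they ran from -0.10 for CLDN8, with CLDN6 at -0.08, CLDN17 at -0.04 and CLDN10 at -0.01, to 0.06 for CLDN12 and 0.08 for CLDN7. CLDN17 and CLDN8 neighbour each other in the Sscrofa11.1 RefSeq annotation, where they are the only pair of adjacent members with both genes measured here.

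Among gap junction genes, GJB5 had the smallest p of all members in the fit of log ratios. It encodes a connexin that in mice is found in the trophoblast lineage. Its normalised log2 intensity was 9.36, 8.37, 9.08 and 7.44 in the ethanol pools of arrays 1 to 4, against 9.58, 9.30, 9.61 and 8.02 in the control pools. The ethanol pool was the lower one on all 4 arrays, although levels overlapped across arrays (8.56 ± 0.85 in ethanol pools and 9.12 ± 0.75 in control pools, SD, n = 4 each). The ratios were -0.22, -0.92, -0.53 and -0.58, and the fitted value was -0.56 (SE 0.10), 1.48-fold lower with a 95% interval from 1.25-fold to 1.74-fold lower. GJB5 ranked 24 of 7344 named genes by p and did not pass the adjustment (adjusted p = 0.512 in limma). With each array left out in turn its value stayed between -0.65 and -0.48. In the separate-channel analysis its SE was 0.27 and its unadjusted p 0.0689 in limma, so it was not among the members under 0.05 there, and PRKCI had 0.00188. Beside this, 8 of 11 trophectoderm markers also lay below 0, with a median of -0.15 and a range from -0.38 to 0.08. CDX2 (0.08), KRT18 (0.05) and ELF5 (0.03) lay above 0. An unadjusted p under 0.05 was found for 3 of the 11 (GATA2, TEAD4 and PPAG3), beside 9.03% of all named genes. The part of these markers in the GJB5 value was not tested.

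The other measured connexins were dim. GJB7 had a fitted ratio of -0.04 (SE 0.09) and exceeded background with ethanol RNA on 3 arrays and with control RNA on 2. GJA9 had -0.03 (SE 0.08), with ratios of 0.03, -0.19, -0.08 and 0.12 on arrays 1 to 4, and exceeded background with ethanol RNA on 2 arrays and with control RNA on 3. The remaining 5 connexins of the array, GJA1, GJA5, GJA10, GJB1 and GJC3, were not measured.

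**Figure D2:**
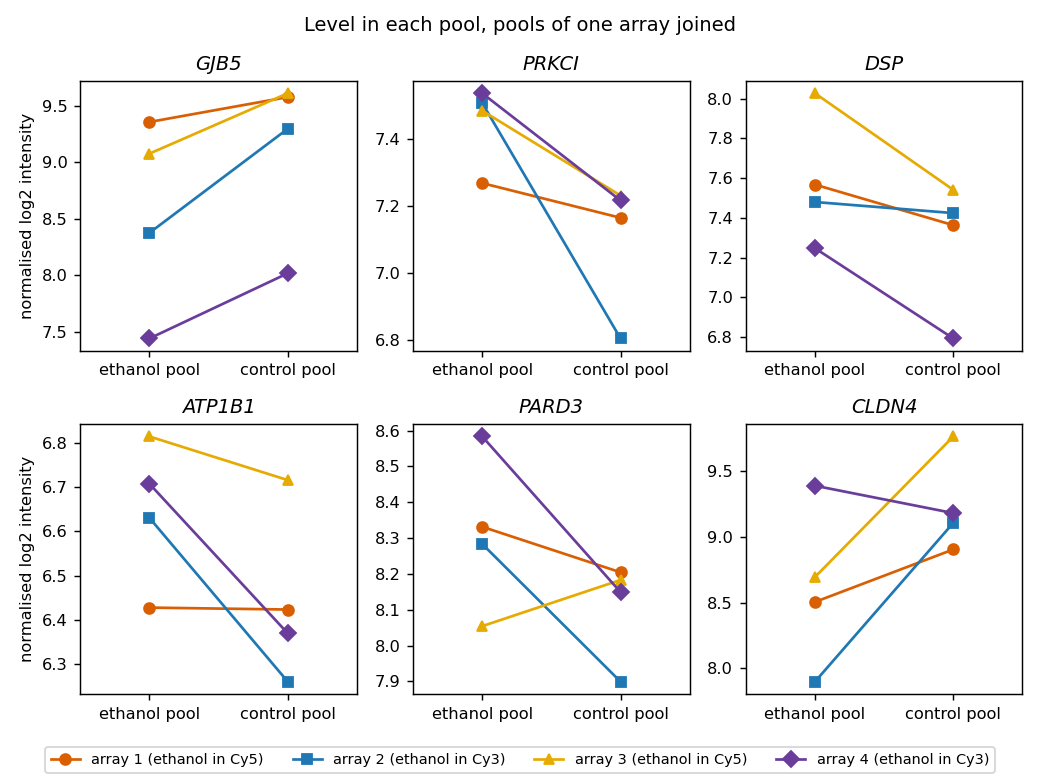
Normalised log2 intensity (y axis) in the ethanol pool and the control pool of each array, for the 6 members with an unadjusted p under 0.05. Each line joins the pools of an array, and y axes differ between panels. GJB5 was lower in the ethanol pool of all 4 arrays, and both its pools on array 4 lay below those of arrays 1 to 3. PRKCI, DSP and ATP1B1 were higher in the ethanol pool of all 4 arrays, ATP1B1 on array 1 by a ratio of only 0.00.

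The desmosome had 3 of 4 genes above 0, led by DSP. DSP encodes desmoplakin, which links the desmosome to keratin filaments. Its normalised log2 intensity was 7.57, 7.48, 8.03 and 7.25 in the ethanol pools, against 7.36, 7.42, 7.54 and 6.79 in the control pools. The ethanol pool was the higher one on all 4 arrays, by little on array 2 (ratio 0.06) and most on arrays 3 and 4 (0.49 and 0.45), and levels overlapped across arrays. The fitted value was 0.30 (SE 0.10, adjusted p = 0.622 in limma), 1.23-fold higher with a 95% interval from 1.04-fold to 1.46-fold. It was 0.47 when the background correction had no offset, 0.19 from mean pixel signals and 0.20 without array 4.

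The partners of desmoplakin lay near 0. JUP (plakoglobin), which joins desmoplakin to the desmosomal cadherins, had 0.09 (SE 0.08). DSC2, the desmosomal cadherin desmocollin, had 0.01 (SE 0.07). PKP2 (plakophilin), a plaque protein of the same junction, had -0.01 (SE 0.13) with ratios of 0.04, 0.30, -0.69 and 0.31 on arrays 1 to 4, and all 3 of its kept probes lay below 0, between -0.15 and -0.01.

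Adherens junction genes had 4 of 5 values above 0 and none at an unadjusted p under 0.05. CTNNB1 encodes beta-catenin, the link between cadherins and alpha-catenin and the transducer of Wnt signals. Its normalised log2 intensity was 12.11, 12.10, 12.13 and 12.52 in the ethanol pools, against 12.01, 11.62, 12.06 and 12.40 in the control pools. The ethanol pool was the higher one on all 4 arrays, by 0.48 on array 2 and by 0.07 to 0.12 on the others. The fitted value was 0.20 (SE 0.09, adjusted p = 0.718 in limma) and was 0.11 without array 2.

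CTNNA1, which ties beta-catenin to actin, had the lowest fitted ratio of the adherens junction genes, -0.07 (SE 0.13), with ratios of 0.06, -0.59, 0.10 and 0.16 on arrays 1 to 4. CTNND1, the catenin that holds cadherins at the membrane, had 0.14 (SE 0.11), with array 2 at -0.47 against 0.12 to 0.52. Without array 2 CTNND1 had 0.29 and CTNNA1 had 0.12, and without array 4 they had -0.00 and -0.25. CTNNAL1, a relative of alpha-catenin, had 0.04. CTNNBL1 carries a catenin-like name but encodes a nuclear protein associated with splicing, and had 0.12.

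Of the sodium pump, ATP1B1, a beta subunit that brings the pump to the membrane, was the member measured. Its normalised log2 intensity was 6.43, 6.63, 6.81 and 6.71 in the ethanol pools, against 6.42, 6.26, 6.72 and 6.37 in the control pools. The pools of array 1 were almost equal (ratio 0.00), and those of arrays 2 and 4, where ethanol was in Cy3, differed most (0.37 and 0.34). The fitted ratio was 0.20 (SE 0.07, adjusted p = 0.634 in limma). The probe was dim and exceeded background with ethanol RNA on 3 arrays and with control RNA on 1, so no fold is given. Its value was 0.51 when the background correction had no offset, and it was not kept with mean pixel signals.

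Water channels had no member at an unadjusted p under 0.05 on its brightest probe. AQP3, which carries water and glycerol, had 3 kept probes that did not go the same way. The brightest had a fitted ratio of 0.11 (SE 0.10) with array 1 at -0.18 and the others between 0.11 and 0.31, while the other probes both lay at -0.17 (SE 0.09 and SE 0.07). Each of these had ratios below 0 on all 4 arrays, and 1 of them had an unadjusted p of 0.0476 (adjusted p = 0.685 in limma). With probes averaged AQP3 had -0.08, and the brightest had -0.02 without array 3. AQP2, a water channel known from the kidney collecting duct, had 0.09 (SE 0.09), AQP11, an intracellular channel, 0.02, AQP9, which carries water, glycerol and urea, -0.03 (SE 0.14), and AQP6, an anion-conducting channel of kidney vesicles, -0.06 (SE 0.07). AQP6, the lowest of them, had ratios of -0.17, 0.02, -0.16 and 0.07 on arrays 1 to 4.

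Polarity genes held the member with the highest fitted value. PRKCI encodes an atypical protein kinase C that marks the apical side of the trophectoderm. Its normalised log2 intensity was 7.27, 7.51, 7.49 and 7.54 in the ethanol pools, against 7.17, 6.80, 7.23 and 7.22 in the control pools. Every ethanol pool lay above every control pool. Levels of ethanol and control pools that did not overlap, whichever kind was higher, were found in 1 of 35 members and in 1.35% of named genes. The ratios were 0.10, 0.70, 0.25 and 0.32, and the fitted value was 0.35 (SE 0.09, adjusted p = 0.540 in limma), 1.27-fold higher with a 95% interval from 1.09-fold to 1.48-fold. The value was 0.25 without array 2 and 0.55 when the background correction had no offset, and control RNA exceeded background on 3 arrays.

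PARD3, the scaffold of the same complex, was at an unadjusted p under 0.05 on its brightest probe and split on the others. The level was 8.33, 8.28, 8.05 and 8.58 in the ethanol pools, against 8.20, 7.90, 8.18 and 8.15 in the control pools. The ethanol pool was higher on arrays 1, 2 and 4 and lower on array 3. These levels still hold the dye bias. With the dye coefficient taken out, the ratios were 0.33, 0.18, 0.08 and 0.23 on arrays 1 to 4. That coefficient was fitted on the same arrays, so arrays 1 and 3 must then have the same mean as arrays 2 and 4. Part of the likeness between arrays is thus fixed by the fit. The same step left CLDN4 at 0.09 on array 4 and TJP3 at 0.12 on array 1, with their other arrays below 0. The fitted ratio was 0.20 (SE 0.08, adjusted p = 0.670 in limma), 1.15-fold higher with a 95% interval from 1.01-fold to 1.32-fold. The other kept PARD3 probes had 0.08 and -0.09, and the mean of the 3 was 0.06.

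The second atypical kinase, PRKCZ, had the opposite sign to PRKCI. It had a fitted ratio of -0.15 (SE 0.08), with ratios of 0.24, -0.41, -0.09 and -0.34 on arrays 1 to 4. A difference between the kinases was not tested. PARD6B, the adaptor that joins kinase and scaffold, had -0.01 (SE 0.07).

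EZR encodes ezrin, which ties apical microvilli to actin, and its ratio followed the dye. The ratio was 1.29 and 1.40 on arrays 1 and 3, with ethanol in Cy5, and -1.46 and -1.52 on arrays 2 and 4, with ethanol in Cy3. The fitted value was -0.08 (SE 0.07) and the dye coefficient, which is positive where a probe reads higher in Cy5 whatever the treatment, was 1.42. This was the highest dye coefficient of all 7344 named genes. The fitted value of EZR is the balance of both orientations. KRT8 and KRT18, the keratins of the trophectoderm, had dye coefficients of 1.02 and 1.22 and fitted ratios of -0.08 and 0.05.

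The dye coefficient exceeded the fitted treatment ratio in size in 20 of the 35 members (57.1%), beside 65.1% of named genes. The median size was 0.15 for the dye coefficient and 0.08 for the treatment ratio. CLDN10 (dye coefficient -0.43), AQP2 (-0.40), PKP2 (-0.31) and CLDN17 (-0.30) lay on the Cy3 side, and CTNND1 (0.32) was next to EZR on the Cy5 side. DSP, CLDN4 and GJB5 had dye coefficients of 0.05, -0.12 and 0.19, each smaller in size than their fitted ratios. PARD3 had -0.21, about the size of its fitted ratio.

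**Figure D3:**
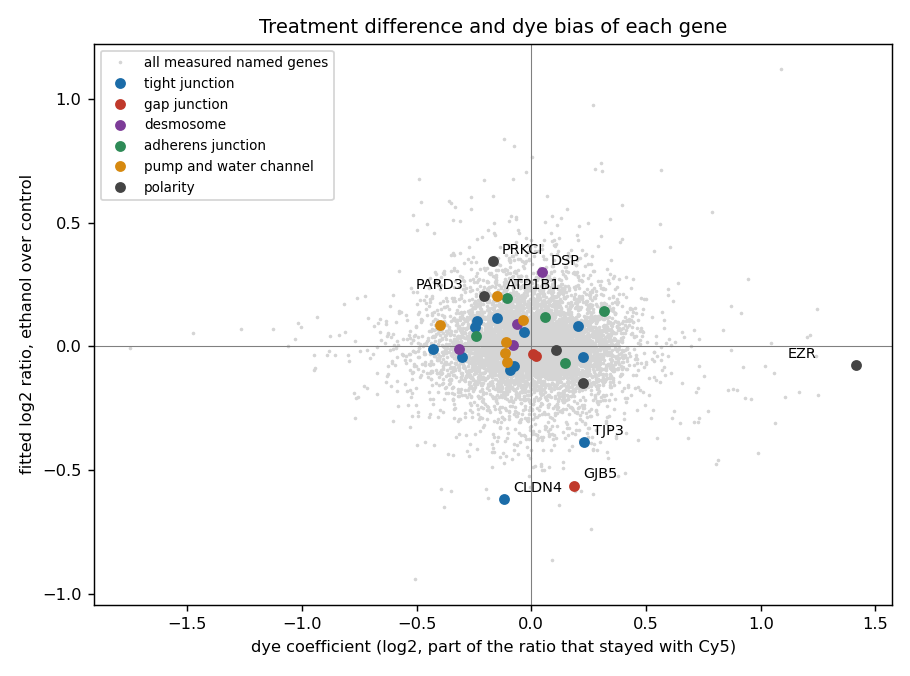
Fitted log2 ratio of ethanol over control (y axis) against the dye coefficient (x axis, log2) for the 35 members, coloured by role, over all 7344 measured named genes in grey. EZR lies farthest to the right, at a dye coefficient of 1.42 and a fitted ratio of -0.08, and CLDN4 and GJB5 lie low, at dye coefficients of -0.12 and 0.19.

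Between arrays, some members varied far more than between treatments. The level shared by the ethanol pool and the control pool of an array, the mean of both channels, spanned 3.63 log2 units over the arrays for TJP3. That was the widest span of all 7344 named genes, against a median of 0.30. TJP3 stood at 12.30, 11.40, 11.72 and 8.67 on arrays 1 to 4, so both pools of array 4 were 8.77-fold below the mean of the other arrays. CLDN7 stood at 11.75, 11.84, 11.93 and 10.06, 3.43-fold lower on array 4. GJB5 stood at 9.47, 8.84, 9.34 and 7.73, 2.80-fold lower on array 4.

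On array 4 the shared level was lower by more than 1 log2 unit in 133 named genes (1.81%), against 8, 2 and 2 on arrays 1, 2 and 3. The members among the 133 were TJP3, CLDN7 and GJB5. DSP was 0.55 lower there, while CLDN6 was 0.51 and CLDN4 0.47 higher, so members of the same junction moved both ways. The polarity genes were within -0.12 and 0.33 of the other arrays and the pump and water channel genes within -0.10 and 0.18. Of the trophectoderm markers 7 of 11 were lower on array 4, with a median of -0.06 and a range from -1.09 for TEAD4 to 0.59 for PPAG3, and the 9 cumulus and granulosa markers lay between -0.09 and 0.22. The 6 hypoblast markers ran from -1.35 for LAMC1 to 0.28, with 3 lower on array 4, and the 3 inner cell mass markers from -0.39 to 0.52, with 1 lower. The part of these markers in the array difference was not tested. Whether the ethanol and control pools of an array shared an embryo collection is not stated in the labels.

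**Figure D4:**
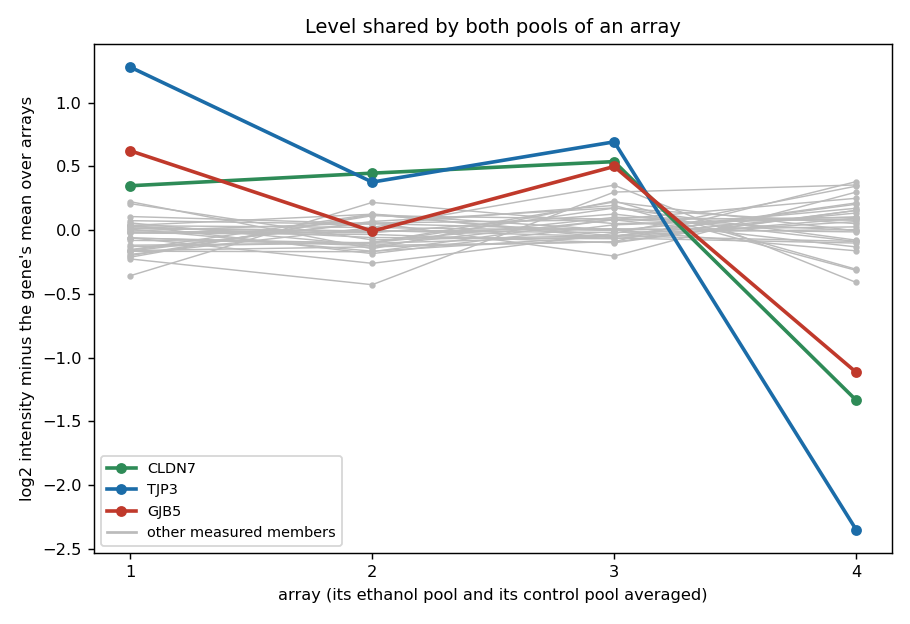
Level shared by the ethanol pool and the control pool of each array, as log2 intensity minus the gene's mean over arrays (y axis), for arrays 1 to 4 (x axis). TJP3, CLDN7 and GJB5 are coloured and the other 32 measured members are grey. The coloured genes drop on array 4, where TJP3 stands at 8.67, against 11.40 or more on the others.

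The fitted value of each of the 6 members at an unadjusted p under 0.05 kept its sign with any array left out. ATP1B1 moved least, between 0.18 and 0.23, and CLDN4 most, between -0.97 and -0.26. PRKCI ranged from 0.25 to 0.44, DSP from 0.20 to 0.40 and PARD3 from 0.14 to 0.27. The unadjusted p in limma was less stable than the sign, and GJB5 alone of the 6 stayed under 0.05 whichever array was left out. ATP1B1 was above 0.05 in all 4 of these fits, at 0.0605 to 0.115, and at 0.0990 without the dye term. With an array left out its SE was 0.0952 to 0.0966, against 0.0693 with all 4 arrays. With fewer arrays in the fit, a higher p need not mean that the arrays disagreed. PARD3 was above it without array 1, 2 or 4, CLDN4 without array 2 or 3, DSP without array 3 or 4, and PRKCI without array 2 (0.0506). Among all 35 members the sign changed in 3 to 6 when an array was left out, each time in genes with an unadjusted p of 0.05 or more.

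**Figure D5:**
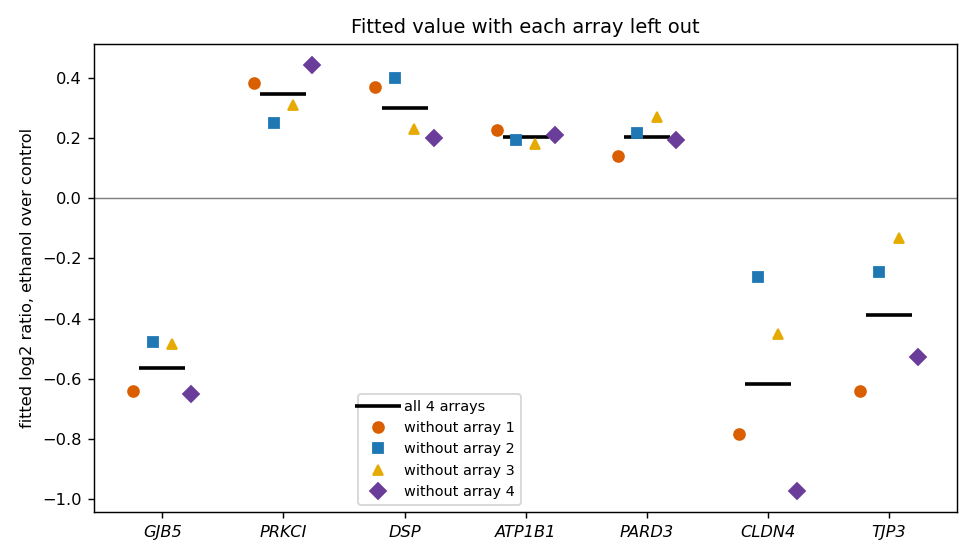
Fitted log2 ratio of ethanol over control (y axis) with all 4 arrays (black line) and with each array left out (symbols), for the 6 members with an unadjusted p under 0.05 and for TJP3. GJB5 stays between -0.65 and -0.48, while CLDN4 runs from -0.97 without array 4 to -0.26 without array 2.

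Other genes of epithelial junctions, polarity and fluid transport were taken from a list of 59 names, of which 33 had a probe and 26 were measured. Their median was -0.05, 16 of the 26 had a negative value, 10 a positive one, and none passed the adjusted threshold. An unadjusted p under 0.05 was found for 2 of the 26 on the higher side and 1 on the lower, beside 4.83% and 4.19% of all named genes. AMOT, which encodes angiomotin, a junctional regulator of the Hippo pathway, had 0.37 (SE 0.09), with array 4 at 0.01 and the others between 0.27 and 0.79. CXADR, an adhesion receptor of the tight junction, had 0.35 (SE 0.12), with array 3 at -0.27. CRB3, the apical Crumbs protein, had -0.20 (SE 0.07), and its ratio was -0.99 and -0.93 with ethanol in Cy5 against 0.46 and 0.64 with ethanol in Cy3. SCNN1A, a subunit of the epithelial sodium channel, had -0.18 (SE 0.08) with all 4 arrays below 0. ROCK2, a kinase that acts on actomyosin, had the highest value, 0.47 (SE 0.21), with array 2 at 1.30.

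The markers of the other cell types gave 0 genes past the adjusted threshold in limma. All 3 measured inner cell mass markers lay below 0, between -0.27 and -0.06, with ESRRB (-0.26) at an unadjusted p under 0.05. Of the hypoblast markers 5 of 6 lay above 0, between -0.05 and 0.27, and of the cumulus and granulosa markers 8 of 9, between -0.24 and 0.08, with 0 at an unadjusted p under 0.05 in either list. The part of these cell types in the values of the junction genes was not tested.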

How the data were processed

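Per the file headers, the deposited scanner files give raw spot intensity and local background for each dye, with no normalization. Per the labels' protocols, RNA was amplified with T7 RNA polymerase and dyed by the Universal Linkage System. Scanner and software are not given in the sources used here. The authors' deposited values, on a log2 scale, were set against Cy5 over Cy3 ratios computed here by background subtraction and loess. The correlation across probes was 0.990, 0.997, 0.994 and 0.985, so their direction is Cy5 over Cy3. Their column medians were -0.0138, -9.35e-05, 0.00378 and 0.00108, and their normalization is unknown. A table with 4 per-array columns that match no label was not used.

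Analysis used R 4.3.3 and limma 3.58.1: normexp with offset 50 on median pixel signals, loess within arrays with 1418 control spots at weight 0, and a probe kept when above the 95th percentile of 153 negative-control spots on at least 3 arrays for ethanol or for control RNA. The model had an ethanol coefficient and a dye coefficient, leaving 2 residual degrees of freedom. P-values were adjusted by Benjamini-Hochberg over all 25899 kept probes. The brightest kept probe represents a gene. Pool levels are channel intensities after loess and Aquantile, and still hold the dye bias. The pools are the replicates, and nothing says that they came from separate cultures. The p-values therefore rest on the spread between these arrays, whose number limits the precision. The moderated test of limma draws the spread of each probe toward that of all kept probes. A p-value thus does not measure that probe's own spread alone, and the intervals use the larger degrees of freedom that result. No scan date or slide is given in the files used here, so no batch was tested. Alternatives changed the background correction, normalization, filter, dye term, variance model, pixel summary, probe choice and arrays.

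Genes are named from the platform annotation, in which 18121 probes have 1 symbol, 0 have several and 25673 have none. From the named genes, 1023 probes with a placeholder symbol were set aside. Of 12 member probes with an accession, 8 matched a Sscrofa11.1 RefSeq transcript, all under the same symbol. The members, lists and rule for named genes (full values for members with an unadjusted p under 0.05 and for the highest and lowest of each role) were chosen with earlier results of these data known. ROCK2, KRT8, KRT18, CDX2, ELF5 and GATA3 fall outside that rule, as do the full values per array of TJP3 and EZR. These were chosen after their values were seen, as was the description of levels shared by both pools of an array. Data were simulated for ethanol over control with 25899 probes and independent errors, with 50 probes each changed 1.5-fold, 2-fold, 3-fold and 4-fold. Of these, 23 of 50 changed 1.5-fold, 48 of 50 changed 2-fold and all changed 3-fold or 4-fold were found. The larger changes ease the adjustment for the smaller ones. The share found at 1.5-fold therefore does not carry over to the real data, where no probe passed.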

Additional observations from a re-analysis of the deposited data

Results flagged for a closer look

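For the 35 measured members the ratios and the levels shared by both pools of an array, 70 sets of 4 values, were searched for an array far from the other 3. Chance marks about 1 set in 20, and a dye bias can set arrays 1 and 3 apart from arrays 2 and 4. The search marked 2 ratios and 4 shared levels. CTNNB1 had a ratio of 0.48 on array 2, against 0.07 to 0.12 on the others, and CTNNA1 had -0.59 on array 2, against 0.06 to 0.16. Among shared levels, CLDN7 stood at 10.06 on array 4, against 11.75 to 11.93 on the others. OCLN stood at 12.09 on array 4, against 11.77 to 11.83, and CLDN6 at 8.62 on array 4, against 8.08 to 8.15. The size of these shifts depends on the Aquantile step between arrays. Array 4 minus the mean of the others was 0.28 after it and 0.14 before it for OCLN. It was 0.51 and 0.41 for CLDN6, and -1.78 and -1.91 for CLDN7. EZR stood at 15.49 on array 1, against 15.19 to 15.23. TJP3, with the widest span over arrays, was not marked, since its arrays 1 to 3 also differed.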

How the results depend on the processing

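No probe and no member passed the adjusted threshold in limma under any of the 14 alternative fits run, with 879 to 2696 probes at an unadjusted p under 0.05. The count of members at an unadjusted p under 0.05, 6 with all arrays, was 3 when a probe had to be above background in both channels of all arrays, 3 to 5 with 1 array left out, and 4 to 7 in the other fits. The members' share ran from 8.57% to 17.1%, against 4.29% to 11.7% of named genes, and was below theirs without array 3 alone. Without array 2 the 3 members were CTNND1, DSP and GJB5. The members' median stayed between -0.01 and 0.05. GJB5 had an unadjusted p of 0.0689 in the separate-channel analysis. The 6 members kept their sign in every setting that measured them, and ATP1B1 and PRKCI were not kept under the stricter filter. The smallest adjusted p was 0.0537, without array 3. Averaging a gene's kept probes gave CLDN4 -0.43 and PARD3 0.06. Every fit of log ratios is paired, since both pools of a pair lie on the same array. Dim signal limits the values of 11 members that were not above background in both channels of all arrays. The cause of these differences was not tested.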
